A study of Homo sapiens with 4 samples.

Results

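The microRNAs (miRNAs) described here were the 7 mature strands of the miR-34a, miR-192, miR-194 and miR-215 hairpins that are linked to the tumour suppressor p53: hsa-miR-34a-5p, hsa-miR-34a-3p, hsa-miR-192-5p, hsa-miR-192-3p, hsa-miR-194-5p, hsa-miR-194-3p and hsa-miR-215-5p, written below without the species prefix. They were chosen by name, not by level, and made up 7 of the 1644 miRNA names in the count table and 94 of its 12689 end isoforms, an end isoform being 1 combination of a 5p start and a 3p end. Small RNAs were sequenced from HCT116 cells, an established human colorectal carcinoma line, after transfection with pCDNA3 plasmids. The 4 libraries were labelled by what was transfected: the empty plasmid (empty vector), plasmids carrying wild-type pri-miRNAs, and plasmids carrying the mutant 1 or the mutant 2 pri-miRNAs. The study used these cells to ask how mismatches in primary miRNAs alter their cleavage by Microprocessor. None of the 36 names that belong to the plasmid-borne hairpins was a member, so every member read came from the genome of the host cells, and the members serve as untransfected miRNAs in all 4 libraries.

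There was 1 library per condition, so no difference below has a replicate check and no p-value is given. The libraries held 14544516 to 19834361 miRNA reads. Reads of untransfected miRNAs made up 92.0% of them with the empty vector, 70.5% with the wild-type plasmids, 70.7% with mutant 1 and 88.3% with mutant 2, and levels are given as reads per 1000000 untransfected miRNA reads (RPM). All intervals are 95% intervals, and they cover counting error only because each condition had 1 library. The reads carry no molecular identifiers, so copies made by amplification count as separate reads and even this error may be understated. The 4 comparisons share libraries: the empty vector library entered 3 of them. Of a fixed list of epithelial miRNAs, miR-200c-3p stood at 8914 to 9898 RPM and miR-141-3p at 10014 to 12683 RPM. The members miR-192-5p, at 1791 to 3003 RPM, and miR-194-5p, at 31.8 to 34.4 RPM, were on the same list. Of the miRNAs typical of mesenchyme, miR-143-3p stood at 125 to 229 RPM and miR-145-5p at 90.7 to 336 RPM, both above miR-194-5p. The liver miRNA miR-122-5p had at most 15 reads, and miR-124-3p, miR-1-3p and miR-133a-3p of neurons and muscle had 0 reads in each library. The erythroid miR-451a had 19 to 39 reads and the myeloid miR-223-3p 7 to 28 reads.

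In animal cells a primary miRNA transcript is cut by Microprocessor (DROSHA with DGCR8) into a hairpin, which DICER then cuts into a duplex of a 5p and a 3p strand, and the strand kept by an Argonaute protein guides it to target mRNAs mainly through its seed, the bases near its 5p end. The p53 protein activates transcription of the miR-34a gene directly, and miR-34a represses genes that drive the cell cycle and survival. miR-192, miR-194 and miR-215 are abundant in gut epithelium, have also been placed among p53 targets, and act on cell cycle genes. HCT116 cells carry wild-type p53; neither p53 nor any target mRNA was measured in these libraries.

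The mature sequences below show which members can share targets. They come from RefSeq (GRCh38.p14), with the seed, bases 2 to 8 counted from the 5p end, in capitals.
miR-34a-5p: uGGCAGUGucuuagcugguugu
miR-34a-3p: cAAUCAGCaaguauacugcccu
miR-192-5p: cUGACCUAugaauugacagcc
miR-215-5p: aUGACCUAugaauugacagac
miR-192-3p: cUGCCAAUuccauaggucacag
miR-194-5p: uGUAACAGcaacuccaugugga
miR-194-3p: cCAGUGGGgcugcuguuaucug

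miR-192-5p and miR-215-5p had the same seed and were the same at 19 of 21 positions. Counted from 1 at the 5p end, with the miR-192-5p base first, they differed by C1A and C20A. Among the mature sequences in the RefSeq table, which holds none for miR-34c-5p, the seed of miR-34a-5p was also that of miR-449a and miR-449b-5p, and no other miRNA had the seed of miR-194-5p.

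The hairpins lie at 5 places in the genome, all on the minus strand of GRCh38. MIR34A is at chr1:9151668-9151777, where it overlaps an exon of its host lncRNA gene MIR34AHG in GENCODE release 44. MIR192 (chr11:64891137-64891246) and MIR194-2 (chr11:64891355-64891439) are separated by 108 bases and overlap exons of the lncRNA gene MIR194-2HG. MIR215 (chr1:220117853-220117962) and MIR194-1 (chr1:220118157-220118241) are likewise neighbours and lie within an intron of the protein-coding gene IARS2, which is on the other strand. The mature miR-194-5p sequence matched the genome at both MIR194 hairpins, and the count table, which gives end offsets but no read sequences, does not assign its reads to chromosome 1 or 11. How the 2 places were handled in counting, which bears on its level, its ends and every ratio to it, is not known. Each of the other members matched 1 place.

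The guide strand of miR-192 was the most abundant member. miR-192-5p had 40180 reads with the empty vector, 29880 with the wild-type plasmids, 25122 with mutant 1 and 36129 with mutant 2. In the same order its level was 3003, 2441, 1791 and 2387 RPM, the highest with the empty vector and the lowest with mutant 1. It ranked between 40 and 49 among the 1315 to 1354 untransfected miRNAs with a read.

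miR-34a-5p, the guide strand of the direct p53 target, came next with 9140, 8911, 10781 and 11935 reads. Its level was 683 RPM with the empty vector, 728 with the wild-type plasmids, 769 with mutant 1 and 789 with mutant 2. These levels lay close together, and its rank ran from 80 to 88.

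miR-194-5p and miR-215-5p were far less abundant than either. miR-194-5p had 425, 413, 470 and 521 reads, a level of 31.8, 33.7, 33.5 and 34.4 RPM, and the intervals of the 4 levels overlapped. miR-215-5p had 468, 318, 340 and 442 reads, or 35.0, 25.98, 24.2 and 29.2 RPM, and was highest with the empty vector. The intervals of miR-194-5p and miR-215-5p overlapped with the empty vector and with mutant 2, and with the wild-type plasmids and mutant 1 miR-194-5p was the higher. The order miR-192-5p, miR-34a-5p, these 2 strands, miR-34a-3p was the same in all 4 libraries, with intervals apart.

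The 3p strands were rare. miR-34a-3p had 149, 144, 209 and 188 reads, at 11.1, 11.8, 14.9 and 12.4 RPM. miR-192-3p had 13, 8, 5 and 20 reads and miR-194-3p had 5, 2, 8 and 14 reads, and their intervals overlapped in every library. miR-215-3p, the partner strand of miR-215-5p and not a member, had 0, 0, 1 and 2 reads, at or under the floor of 3 reads. Together the 7 members took 0.377%, 0.324%, 0.263% and 0.325% of the untransfected miRNA reads.

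The 5p strand was the dominant strand of all these hairpins. For miR-34a there were 61.3, 61.9, 51.6 and 63.5 reads of the 5p strand per read of the 3p strand, and the 5p share was 98.4%, 98.4%, 98.1% and 98.4%. The intervals of these shares overlapped, the lowest running from 97.8% to 98.3% with mutant 1. For miR-192 the 3p strand made up 0.0323%, 0.0268%, 0.0199% and 0.0553% of the reads of both strands. These shares rest on 13, 8, 5 and 20 reads, and their intervals overlapped. For miR-194 the 3p share was 1.16%, 0.482%, 1.67% and 2.62%, with intervals that overlapped, and since miR-194-3p matched only MIR194-2 while miR-194-5p matched both hairpins, this share may not be that of 1 hairpin. The rare strand thus made up at least 1.55% of the miR-34a reads and at most 0.0553% of the miR-192 reads in any library.

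With levels scaled to untransfected miRNA reads, no member with a mean of at least 50 reads differed by more than 2-fold in any of the 4 comparisons. The 5 members that reach this mean are miR-34a-5p, miR-34a-3p, miR-192-5p, miR-194-5p and miR-215-5p. Among the 476 untransfected miRNAs with such a mean, the share past 2-fold in either direction was 1.89% for wild-type against empty vector, 3.99% for mutant 1 against empty vector, 1.68% for mutant 2 against empty vector and 2.31% for mutant 1 against wild-type. Over all 7 members the count was 1 in each comparison. In each case it was a 3p strand with few reads whose interval included 1. These strands had means below 50 reads. With a minimum mean of 10 reads the shares past 2-fold were 8.24%, 10.7%, 6.82% and 9.52% of 777 miRNAs, a set that still holds the 476. Of these strands miR-194-3p, with 5, 2, 8 and 14 reads, had a mean below 10 and is in neither set. No matching share thus stands beside its calls. The call that no member with a mean of at least 50 reads was past 2-fold depended on the scaling. With miR-16-5p reads as the scale, the log2 ratios of miR-192-5p to the empty vector were -1.34, -1.80 and -1.63 and those of miR-215-5p -1.47, -1.58 and -1.55, beside medians of -0.95, -1.07 and -1.24 over the 476 miRNAs. For mutant 2, miR-34a-5p at -1.09, miR-34a-3p at -1.14 and miR-194-5p at -1.18 were then past 2-fold as well. Under that scaling 43.7%, 57.1% and 78.8% of the 476 miRNAs were past 2-fold. With all miRNA reads as the scale, miR-192-5p was at -1.13 for mutant 1, beside a median of -0.40 and 10.9% past 2-fold.

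Those 3p strands were miR-194-3p and miR-192-3p. The level of miR-194-3p with the wild-type plasmids was 0.437 times that with the empty vector (0.0848 to 2.25), and with mutant 2 it was 2.48 times (0.892 to 6.87). Between mutant 1 and wild-type its ratio was 3.49 (0.741 to 16.4). For miR-192-3p the ratio of mutant 1 to empty vector was 0.367 (0.131 to 1.03). A difference was not detectable at this depth for either strand.

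miR-192-5p was lower in each plasmid library than with the empty vector, also relative to the median miRNA. Its log2 ratio minus that median was -0.39 with the wild-type plasmids, -0.73 with mutant 1 and -0.39 with mutant 2, which no scaling alters. Its ratio was 0.813 with the wild-type plasmids (0.801 to 0.825), 0.596 with mutant 1 (0.587 to 0.606) and 0.795 with mutant 2 (0.784 to 0.806). Between mutant 1 and wild-type it was 0.734 (0.722 to 0.746). Over the 5 scalings the mutant 1 to empty vector ratio ran from 0.288 to 0.647. The counting intervals were narrow and excluded 1, but the scatter of the other miRNAs was wider. For mutant 1 against empty vector the log2 ratio of miR-192-5p was -0.75, the 5th to 95th percentile range of the 476 miRNAs was -0.80 to 0.71, and 6.93% of them had a lower ratio. With the wild-type plasmids 7.14% and with mutant 2 9.66% of the miRNAs had a lower ratio than miR-192-5p.

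miR-215-5p, which carries the same seed and is encoded on another chromosome, was also lower than with the empty vector in each plasmid library, with log2 ratios minus the median miRNA of -0.52, -0.51 and -0.32 for wild-type, mutant 1 and mutant 2. Its ratios were 0.743 (0.644 to 0.856) with the wild-type plasmids, 0.693 (0.603 to 0.797) with mutant 1 and 0.835 (0.733 to 0.951) with mutant 2. For the wild-type plasmids its log2 ratio of -0.43 lay below the 5th percentile of -0.37, with 2.94% of the miRNAs lower. For mutant 1 14.1% and for mutant 2 14.9% of the miRNAs had a lower ratio. Mutant 1 and wild-type differed less, with a ratio of 0.933 (0.801 to 1.09) that was above 1 with edgeR TMM and DESeq2 scaling.

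The ratios of miR-34a-5p to the empty vector were 1.07, 1.13 and 1.15 in the wild-type, mutant 1 and mutant 2 libraries. The interval for mutant 2 was 1.12 to 1.19. Its log2 ratios minus the median miRNA were 0.004, 0.19 and 0.15, which no scaling alters. All 3 ratios fell below 1 when scaled to miR-16-5p reads, which the plasmids also carry. The median log2 ratios of the 476 miRNAs were then -0.95, -1.07 and -1.24. The first 2 fell below 1 when scaled to all miRNA reads, beside medians of -0.30 and -0.40. The first did so, at log2 ratios of -0.01 and -0.02, with edgeR TMM and DESeq2 scaling. Between 50.6% and 69.7% of the other miRNAs had a lower ratio, so miR-34a-5p lay in the middle of the distribution. Its partner miR-34a-3p had ratios of 1.06 (0.840 to 1.33), 1.34 (1.08 to 1.65) and 1.12 (0.900 to 1.38). miR-194-5p had ratios of 1.06, 1.05 and 1.08, each with an interval that included 1. All ratios of these 2 strands were below 1 under the miR-16-5p scaling, their wild-type ratios also under the other 3 alternative scalings, and the mutant 1 ratio of miR-194-5p also with all miRNA reads as the scale.

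Ratios between members do not depend on the scaling. There were 94.5 reads of miR-192-5p per read of miR-194-5p with the empty vector (85.9 to 104), 72.3 with the wild-type plasmids (65.7 to 79.7), 53.5 with mutant 1 (48.8 to 58.6) and 69.3 with mutant 2 (63.6 to 75.6). The empty vector value stood above the others and the mutant 1 value below them, although MIR192 and MIR194-2 are neighbours; the part of the reads that came from MIR194-1 is not known. Relative to miR-34a-5p, miR-192-5p had 4.40, 3.35, 2.33 and 3.03 reads per read, in the same order of libraries.

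The balance of the strands that share the UGACCUA seed moved less. There were 85.9 reads of miR-192-5p per read of miR-215-5p with the empty vector (78.4 to 94.0), 94.0 with the wild-type plasmids (84.1 to 105), 73.9 with mutant 1 (66.4 to 82.2) and 81.7 with mutant 2 (74.4 to 89.8). The interval of mutant 1 lay below that of wild-type and overlapped the other 2. Of all reads of these 2 miRNAs, at any start, miR-192-5p supplied 98.7% to 98.9%. Of all reads of the miRNAs whose annotated form has the miR-34a-5p seed in the RefSeq table, miR-34a-5p supplied 89.3%, 90.1%, 92.0% and 92.1%. These shares leave out miR-34c-5p, another member of the miR-34 family, which is described below. The rest of the reads counted were miR-449a, with 932, 771, 698 and 792 reads, and miR-449b-5p, with 167, 207, 235 and 226 reads.

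The 5p and 3p ends of the reads were compared next. The signs of the deposited offsets were read from 10981 end isoforms with a reference sequence. All were 18 to 26 nt long only when positive 5p offsets meant downstream starts and negative 3p offsets meant longer 3p ends. Starts are given in that sense. The 3p ends are given below as bases past the annotated end, so a negative value there is a shorter end. The aligner allowed mismatches at the 3p end of a read and the count table holds no read sequences, so added bases that match the genome and added bases that do not are counted alike as a longer end.

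miR-34a-5p started at its annotated base in 96.8%, 95.9%, 96.9% and 96.1% of reads. Its 3p end was mixed: 39.4%, 38.8%, 45.5% and 43.4% of reads ran past the annotated end, nearly all by 1 base. The leading isoforms were these, the annotated form and the form with 1 more base, with the genome's bases shown.
miR-34a-5p, 22 nt: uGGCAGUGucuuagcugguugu
miR-34a-5p, 23 nt: uGGCAGUGucuuagcugguuguu
The 22-nt form had 4966, 4855, 5327 and 6064 reads and the 23-nt form 3398, 3244, 4611 and 4822 reads. The longer share was higher in the mutant 1 and mutant 2 libraries, by 6.12 and 4.03 percentage points over the empty vector. Over the 476 miRNAs the 5th to 95th percentile of this change for mutant 1 was -3.86 to 11.6 points, and 87.0% of them changed less or fell.

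The 3p strand of miR-34a changed more. Reads of miR-34a-3p that ran past the annotated end were 16 of 149 with the empty vector, 37 of 144 with the wild-type plasmids, 69 of 209 with mutant 1 and 47 of 188 with mutant 2. These counts are shares of 10.7% (6.72 to 16.7), 25.7% (19.3 to 33.4), 33.0% (27.0 to 39.6) and 25.0% (19.4 to 31.6). The empty vector library was the low one, and its interval did not overlap those of the other 3. The rise over the empty vector was 15.0, 22.3 and 14.3 points. A smaller rise or a fall was seen in 99.2%, 99.6% and 98.9% of the untransfected miRNAs, so the difference stood at the edge of what these showed between libraries. Most of them had more reads than miR-34a-3p, which ranked 301 to 331. Their median share past the annotated end was 4.95% to 6.13%. This background is therefore not matched to the depth or the mixed end of miR-34a-3p. The comparisons share the 149 reads of the empty vector library. The annotated 5p start held 86.6%, 76.4%, 77.5% and 70.2% of its reads, most others began 1 base downstream, and only the mutant 2 interval (63.3 to 76.3) lay apart from that of the empty vector (80.2 to 91.1).

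miR-192-5p ended at its annotated base in most reads, and 10.9%, 13.1%, 13.8% and 11.7% ran past it. Its 5p start was at the annotated base in 92.1%, 90.4%, 90.7% and 92.0% of reads. A second start, 1 base downstream, held 7.80%, 9.43%, 9.14% and 7.89% of reads, or 3133, 2818, 2296 and 2849 reads. The shift moves the seed by 1 base, as 2 forms of that start, the leading ones in the sum over libraries, show beside the annotated one. With mutant 1 the 22-nt form of the downstream start led, with 654 reads.
miR-192-5p, annotated start: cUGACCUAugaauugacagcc
miR-192-5p, start 1 base downstream: uGACCUAUgaauugacagcca
miR-192-5p, start 1 base downstream: uGACCUAUgaauugacagcc

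The reads with the downstream start also ended further on. They extended past the annotated 3p end by a mean of 1.29, 1.35, 1.53 and 1.41 bases, while reads with the annotated start did so by 0.0521, 0.0632, 0.0747 and 0.0606 bases. Summed over the libraries the difference was 1.33 bases, against a median of 0.20 over 187 miRNAs with at least 50 reads at both starts, and 95.2% of those had a smaller value. The mean read length was 21.05 to 21.07 nt at the annotated start and 21.3 to 21.5 nt at the downstream start. In miR-34a-5p the reads that started 1 base upstream ended earlier than those with the annotated start, with a mean difference of -1.24 bases against a median of -0.25 over the miRNAs with both starts. By library, the upstream reads of miR-34a-5p ended a mean of -1.36, -1.23, -0.39 and -0.60 bases from the annotated end, further from it in the empty vector and wild-type libraries, while reads with the annotated start were at 0.32, 0.33, 0.41 and 0.37. Reads that started 1 base downstream ended 0.54 bases later.

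**Figure D1:**
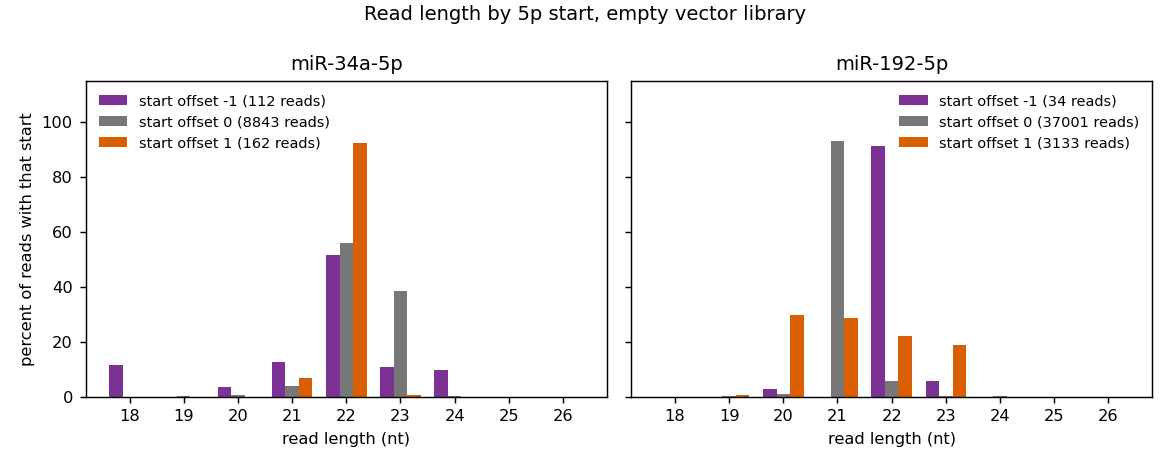
Share of the reads of miR-34a-5p and miR-192-5p with each read length in nt, split by 5p start offset (-1 upstream, 0 annotated, 1 downstream), in the empty vector library; bars of 1 colour add to 100% of the reads with that start. The 162 reads of miR-34a-5p with offset 1 are nearly all 22 nt, and the 3133 reads of miR-192-5p with offset 1 spread over 20 to 23 nt.

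miR-215-5p differed from miR-192-5p at both ends, despite their near-identical sequence. Its start was at the annotated base in all 468, 318 and 340 reads of the empty vector, wild-type and mutant 1 libraries, which allows a share elsewhere of up to 0.641%, 0.943% and 0.882% when the limit for a count of 0 is set at 3 reads of the total, and in 437 of 442 reads with mutant 2. Its 3p end ran past the annotated base in 69.2%, 66.0%, 70.6% and 65.4% of reads. The form with 1 more base led the annotated form in each library.
miR-215-5p, 22 nt: aUGACCUAugaauugacagaca
miR-215-5p, 21 nt: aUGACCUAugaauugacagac
The 22-nt form made up 67.7%, 64.5%, 67.6% and 63.8% of reads and the 21-nt form 26.5%, 23.9%, 23.2% and 28.7%. Reads of either miRNA that started downstream and stopped before position 20, where the sequences are the same, numbered 0, so all counted downstream reads covered the C20A difference. That base is near the 3p end, where the alignment allowed mismatches. The methods kept only unambiguous reads, so a read that is the same in both miRNAs may have been left out before counting. The count of 0 cannot tell whether such reads existed.

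miR-194-5p was split evenly between its annotated end and a longer one. Its annotated 22-nt form is the same at both MIR194 hairpins, but the next genome base is C at MIR194-1 and A at MIR194-2. How these places were handled in counting is not known and may therefore bear on this split. The share past the annotated end was 49.2%, 48.4%, 49.6% and 49.3%, with a start at the annotated base in 98.8%, 97.8%, 98.7% and 97.5% of reads. The share past the annotated end changed by at most 1.15 points in the 4 comparisons, the least among the members with a mean of at least 50 reads. In all 4 libraries the share past the annotated end was above the median of the untransfected miRNAs, 4.95% to 6.13%, for all 5 of these members.

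Other miRNAs linked to p53 were read as a fixed list of 11: both strands of miR-34b and miR-34c, which are p53 targets like miR-34a; miR-107, miR-143-3p, miR-145-5p, miR-200c-3p, miR-141-3p, miR-22-3p and miR-605-5p. All 11 had a read and 7 had a mean of at least 50 reads. Of these 7, past 2-fold were 0 for wild-type against empty vector, 1 for mutant 1 against empty vector, 1 for mutant 2 against empty vector and 0 for mutant 1 against wild-type, where 1.89%, 3.99%, 1.68% and 2.31% of all 476 were past 2-fold. Their median log2 ratios were 0.08, -0.19, -0.00 and -0.29, beside medians of 0.09, -0.02, 0.06 and -0.15 over the 476 miRNAs.

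Under this scaling the one past 2-fold was miR-145-5p, which is abundant in mesenchyme. It had 1214, 2208, 4715 and 3204 reads, or 90.7, 180, 336 and 212 RPM, and its ratio to the empty vector was 1.99, 3.70 and 2.33 in the wild-type, mutant 1 and mutant 2 libraries, though with the miR-16-5p scaling they were 0.969, 1.79 and 0.951. For mutant 1 against wild-type its ratio was 1.86, and up to 2.17 under the other scalings. All other scalings were tried on this list after seeing the data. With the miR-16-5p scaling 3 of the 7 were past 2-fold for wild-type, 4 for mutant 1 and 5 for mutant 2 against empty vector. All of these were lower and none was miR-145-5p, where 43.7%, 57.1% and 78.8% of the 476 were past 2-fold. With all miRNA reads as the scale, miR-143-3p was also past 2-fold and lower for mutant 1 against empty vector, which made 2 of the 7. With edgeR TMM and DESeq2 scaling, miR-145-5p was past 2-fold for mutant 1 against wild-type, which made 1. miR-143-3p, which is made from the same transcript, went the other way at 229, 186, 125 and 164 RPM. miR-34c-5p, of the miR-34 family, had 86, 118, 112 and 151 reads, and miR-34b-5p, miR-34b-3p and miR-34c-3p had at most 10 reads in a library.

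By the root mean square difference of the log2 level over the 4 libraries, each centred on its own mean, the miRNAs most like miR-34a-5p were miR-497-5p (0.02), miR-148b-3p (0.02) and miR-4653-5p (0.03). For miR-192-5p they were miR-1286 (0.03), miR-92b-3p (0.04) and miR-5092 (0.05), and for miR-194-5p miR-561-5p (0.02), miR-1292-5p (0.02) and miR-452-5p (0.03). The median difference over all other miRNAs was 0.19, 0.29 and 0.18 for these 3 members. With 4 libraries many miRNAs share a pattern. miR-92b-3p, like miR-192-5p, was highest with the empty vector at 13752 RPM and lowest with mutant 1 at 8141.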

How the data were processed

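The authors deposited raw counts of reads for each miRNA end isoform in 4 libraries. Per the study's methods, adapters were trimmed with cutadapt, reads of 18 to 26 nt were kept, low-quality reads were removed, and Bowtie2 aligned the rest to hg38. The methods kept unambiguous reads at miRBase loci, with mismatches only at the 3p end; how reads of miR-194-5p, which matches 2 loci, were counted is not given in the sources used here. The miRNA counts were summed over end isoforms and scaled to reads per 1000000 untransfected miRNA reads, leaving out the 36 plasmid-borne names; the study scaled to miR-16-5p, which the plasmids also carry. Blank cells were read as 0. A mean of at least 50 reads was asked of miRNAs in the background. Shares have Wilson intervals, levels exact Poisson intervals and ratios normal intervals on the log scale, at 95%. No tests were run, as each condition had 1 library. The calculations used Python 3.11.15, scipy 1.17.1, edgeR 4.0.16 and DESeq2 1.42.0 (the last pair for scaling factors only), and were tested on simulated data. Alternatives were 4 other scalings, other thresholds, a pseudocount and subsets of isoforms. The named miRNAs were the 7 members, their partner strands, miRNAs with a guide's seed, the list of 11 and the 3 most alike miRNAs for each of 3 members. A fixed list of cell type markers and miR-16-5p, as a scale, were named as well. The members and lists were chosen with earlier results of these data known.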

Additional observations from a re-analysis of the deposited data

How the results depend on the processing

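The count of members past 2-fold was 1 of 7 in each comparison. With the miR-16-5p scaling it was 4 for wild-type, 3 for mutant 1 and 5 for mutant 2 against empty vector; this scaling moved the median log2 ratio of the 476 miRNAs to -0.95, -1.07 and -1.24 and put 43.7%, 57.1% and 78.8% of them past 2-fold. With all miRNA reads as the scale it was 2 for mutant 1 against empty vector, beside 10.9% of the 476. At 1.5-fold it was 3 for mutant 1 against empty vector and 2 for mutant 1 against wild-type, beside 21.2% and 15.8% of the 476. A pseudocount of 1 gave 0 for wild-type against empty vector, and a mean of at least 50 reads gave 0 in all 4 comparisons. edgeR TMM and DESeq2 scaling left the 4 counts within 1.5 times.

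The share of untransfected miRNAs past 2-fold with a minimum mean of 10 reads was 8.24%, 10.7%, 6.82% and 9.52% for wild-type, mutant 1 and mutant 2 against empty vector and mutant 1 against wild-type. With a minimum of 200 reads it was 0.322%, 1.93%, 0.965% and 0.322%.

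With only the most frequent 5p start of each arm, the 5p share of miR-34a was 98.7% with the wild-type plasmids, 98.5% with mutant 1 and 98.9% with mutant 2. The miR-192-5p to miR-215-5p ratio stayed within its interval in each library under both alternatives run. Of 112 log2 ratios of members under another scaling, 67 stayed within the interval and 45 moved outside it. No paired analysis was possible because each condition had 1 library.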
